A study of Mus musculus with 27 samples.

Results

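The genes described here make, break down and sense acetylcholine in the brain. They are Chat, Slc18a3 and Slc5a7, which serve acetylcholine synthesis, vesicle loading and choline reuptake, Ache, which serves its breakdown, the muscarinic receptor genes Chrm1, Chrm2, Chrm3 and Chrm4, and the nicotinic receptor subunit genes Chrna4 and Chrnb2. They were chosen by symbol from the gene count tables of mouse frontal cortex (FX) and striatum (STR), and 9 of the 10 were matched by identifier among 52636 counted genes. No identifier was paired with Slc18a3, so it was not analysed here.

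The RNA came from wild-type (WT) mice and from mice homozygous for a deletion of an intergenic enhancer between H19 and Igf2 (Igf2enh-/-), called KO in the labels. All were adults of about 2.5 months, and no treatment is stated. The deletion of 4.9 kb was made in the germ line on the 129S1 background and left a loxP site in place, so every cell of the Igf2enh-/- mice carried it. Frontal cortex gave 6 WT and 6 Igf2enh-/- libraries, with 3 females and 3 males each. Striatum gave 7 WT libraries (3 females and 4 males) and 8 Igf2enh-/- libraries (4 of each sex). Library totals ran from 23686945 to 33926904 counts. The labels do not say which cortical and striatal libraries came from the same mouse, and each was treated as a separate sample. The deleted fragment is intergenic, so gene counts offer no direct check of the genotype labels.

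Acetylcholine in the striatum comes mainly from local cholinergic interneurons, which are few in number but branch very widely. The frontal cortex instead receives its acetylcholine largely through axons of basal forebrain neurons, whose cell bodies, with most of their RNA, lie outside the cortex. Muscarinic receptors are coupled to G proteins: Chrm1 and Chrm3 encode receptors that act through Gq and phospholipase C, and Chrm2 and Chrm4 encode receptors that act through Gi and often sit on cholinergic terminals or on medium spiny neurons, the main projection neurons of the striatum. The proteins of Chrna4 and Chrnb2 assemble into the commonest high-affinity nicotinic channel of the brain.

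The promoters of Chat, Slc5a7 and Chrm4 are shown because these were the members whose levels were over 1 log2 unit higher in striatum than in frontal cortex, and because all 3 varied together among the striatal libraries, as described below. Each line gives 250 bases at the annotated start of the gene, 5′ to 3′ on the gene's strand, from RefSeq on GRCm38.p6. The windows of Chat and Chrm4 end just before that start. The Slc5a7 gene is annotated up to position 54299038, so its window includes a few bases of the gene. Chat is at chr14:32465910-32466159 on the minus strand, Slc5a7 at chr17:54299035-54299284 on the minus strand and Chrm4 at chr2:91921939-91922188 on the plus strand. Capitals mark matches to CACGTG, the palindromic E-box, or to the GC box GGGCGG on either strand.
Chat: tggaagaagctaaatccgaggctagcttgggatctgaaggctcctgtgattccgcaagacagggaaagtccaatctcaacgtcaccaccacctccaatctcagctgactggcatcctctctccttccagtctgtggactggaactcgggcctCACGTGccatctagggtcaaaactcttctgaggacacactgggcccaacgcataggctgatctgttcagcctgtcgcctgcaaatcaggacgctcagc
Slc5a7: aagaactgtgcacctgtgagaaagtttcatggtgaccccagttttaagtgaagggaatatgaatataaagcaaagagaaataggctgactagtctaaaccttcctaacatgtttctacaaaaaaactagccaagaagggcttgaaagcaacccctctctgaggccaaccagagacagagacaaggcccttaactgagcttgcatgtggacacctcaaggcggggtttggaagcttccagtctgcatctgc
Chrm4: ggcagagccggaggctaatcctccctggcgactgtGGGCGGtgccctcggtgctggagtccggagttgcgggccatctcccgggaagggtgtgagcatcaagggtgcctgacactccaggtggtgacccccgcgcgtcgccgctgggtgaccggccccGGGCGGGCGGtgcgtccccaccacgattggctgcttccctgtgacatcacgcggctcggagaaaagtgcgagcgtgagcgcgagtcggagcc
No motif searched was shared by the 3 windows. The single CACGTG in the Chat window is a motif found in 6.02% of the 32851 RefSeq windows of the same length, and the 3 GGGCGG matches in the Chrm4 window, 2 of them overlapping, are of a motif found on either strand in 32.7% of windows. Neither was present in the Slc5a7 window, and TAATTA, a core bound by LIM homeodomain factors, and TGACGTCA, the cAMP response element, were in none of the 3 windows (4.84% and 1.55% of all windows held them). G and C made up 54.8% of the Chat window, 45.6% of the Slc5a7 window and 70.0% of the Chrm4 window, against a median of 52.4% over all windows.

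Levels are given in CPM, the count of a gene scaled to a fixed library size, with library sizes adjusted by the trimmed mean of M values (TMM). A difference was called when the Benjamini-Hochberg adjusted p of edgeR's quasi-likelihood test, taken over all tested genes, was under 0.05. The first comparison asked how the 9 genes differed between striatum and frontal cortex, with the genotypes and sexes balanced in one fit. Chat and Slc5a7 were far higher in striatum, Chrm4 and Ache were higher by smaller steps, Chrm3 and Chrna4 were lower, and Chrm1, Chrm2 and Chrnb2 differed least. All 9 were called, 5 higher and 4 lower in striatum. Of the 14397 genes tested, 78.3% were called (39.3% higher and 39% lower), so a call by itself distinguished none of the 9. The sizes are what the data add. The median absolute log2 difference over all tested genes was 0.254, and those of Chrm1, Chrm2 and Chrnb2 were below it. Absence of overlap between the regions is given below for single genes. Its share over all tested genes was not counted, so nothing is read from it. In these bulk samples, fewer cells of a type and less RNA per cell cannot be told apart.

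Chat encodes choline acetyltransferase, the enzyme that makes acetylcholine and the standard marker of a cholinergic cell. In frontal cortex its level was 0.270, 0.369 and 0.562 CPM (lowest, median and highest of 12 libraries), from 7 to 15 counts per library. In striatum it was 9.90, 20.8 and 30.3 CPM over 15 libraries. Every striatal library lay above every cortical one. The log2 difference was 5.63 (SE 0.177), or 49.4-fold, with an adjusted p of 4.92e-19. Chat passed the filter on low counts in this fit only through its level in striatum, since no cortical library reached 1 CPM.

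Slc5a7 encodes the high-affinity choline transporter, which returns choline to the cholinergic terminal. It ran at 1.03, 1.43 and 2.24 CPM in frontal cortex and at 20.2, 44.4 and 68.4 CPM in striatum, again with no overlap between the regions. The log2 difference was 4.93 (SE 0.164), or 30.6-fold. Both genes had their lowest striatal level in library 20 and their highest in library 22, which were both from WT males. Ache encodes acetylcholinesterase, which ends the signal by hydrolysing acetylcholine. Its levels were 59.0, 63.2 and 68.0 CPM in frontal cortex and 69.4, 87.1 and 96.3 CPM in striatum. The regions did not overlap here either, but the log2 difference was 0.46 (SE 0.0383), or 1.38-fold. The log2 ratio of Ache to Chat counts within a library therefore went from 7.26 ± 0.358 (SD, n = 12) in frontal cortex to 2.15 ± 0.333 (SD, n = 15) in striatum.

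Among the muscarinic receptor genes, Chrm4 was the member that rose. It ran at 11.4, 21.1 and 23.1 CPM in frontal cortex and at 38.3, 61.5 and 77.4 CPM in striatum, without overlap, for a log2 difference of 1.69 (SE 0.100) or 3.23-fold. Chrm3 went the opposite way. Its levels were 71.1, 84.8 and 94.7 CPM in frontal cortex and 16.6, 25.9 and 49.3 CPM in striatum, and it fell by 1.58 on the log2 scale (SE 0.127) in striatum relative to frontal cortex, with every striatal library below every cortical one. Chrm1, the most abundant muscarinic receptor gene of the forebrain, had 198, 220 and 243 CPM in frontal cortex and 153, 193 and 213 CPM in striatum. The groups overlapped, with 10 of the 15 striatal libraries below all cortical ones, and the log2 difference was -0.21 (SE 0.0368, adjusted p 1.10e-05). Chrm2 overlapped more, at 16.0, 21.1 and 25.6 CPM in frontal cortex and 13.1, 16.4 and 27.1 CPM in striatum, with a log2 difference of -0.25 (SE 0.0885, adjusted p 0.0119).

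The nicotinic subunit genes parted. Chrna4 had 31.3, 39.9 and 46.1 CPM in frontal cortex and 11.6, 17.6 and 28.4 CPM in striatum, and it fell by 1.06 on the log2 scale (SE 0.117) with no overlap. Chrnb2 had 56.6, 59.5 and 62.8 CPM in frontal cortex and 54.4, 63.6 and 67.9 CPM in striatum, a log2 difference of 0.07 (SE 0.0280, adjusted p 0.0178). The plot of levels by library shows how much narrower the Chrnb2 libraries lay than those of its partner subunit.

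**Figure D1:**
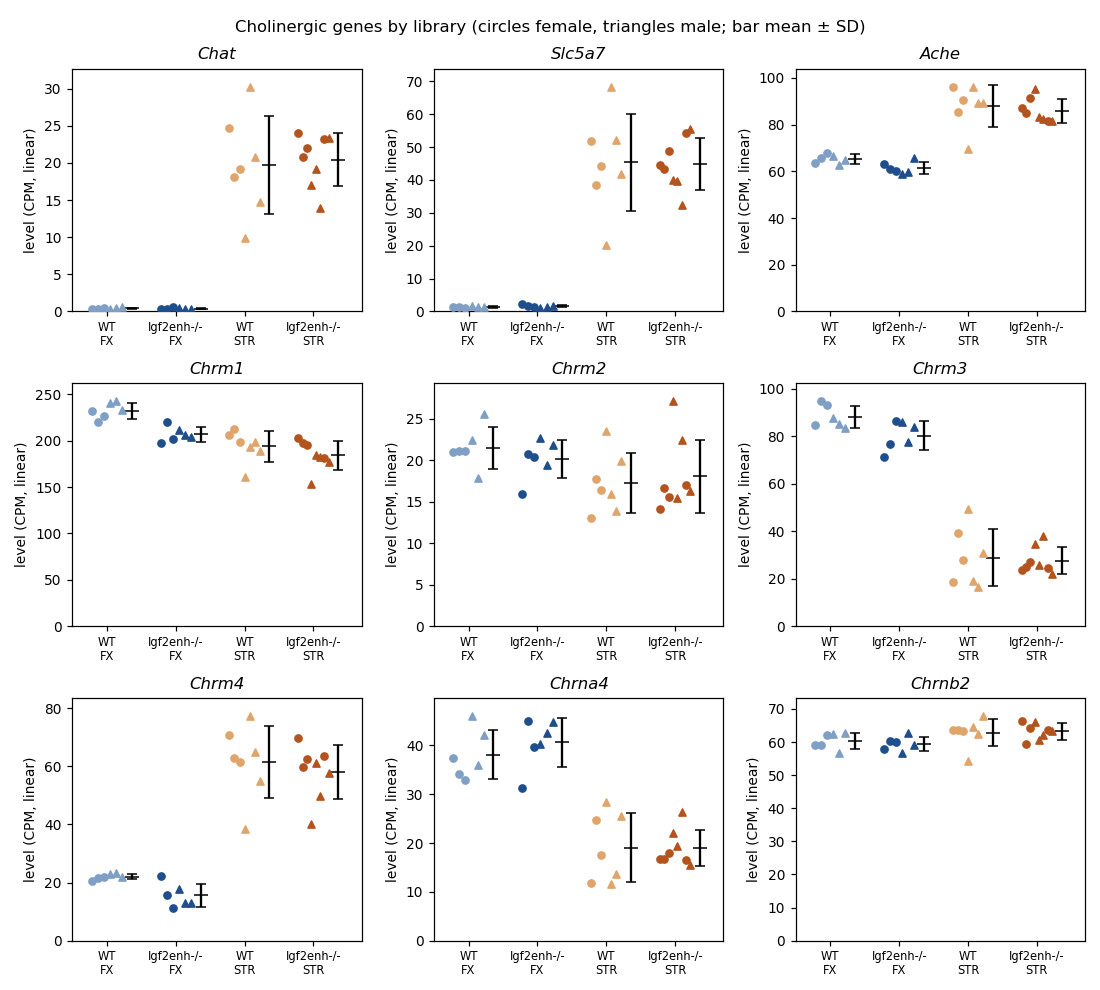
Level of each gene (CPM, linear axis from 0) in every library of the 4 groups, WT and Igf2enh-/- in FX and STR, with circles for females, triangles for males and bars for the mean ± SD of each group. Chat and Slc5a7 lie near 0 in both cortical groups and reach 30.3 and 68.4 CPM in striatum, and 5 of the 6 Igf2enh-/- cortical libraries lie below all WT cortical libraries for Chrm1 and for Chrm4.

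The balance between members changed with them. These changes follow from the region differences of the single genes given above, so their tests add no separate evidence. Chat had 7 to 15 counts per cortical library. Ratios of the counts of 2 members within a library, with 0.5 counts added to each, do not depend on library size. The log2 ratio of Chrm1 to Chrm4 was 3.58 ± 0.314 (SD, n = 12) in frontal cortex and 1.68 ± 0.187 (SD, n = 15) in striatum, and that of Chrna4 to Chrnb2 was -0.62 ± 0.175 and -1.78 ± 0.431. These differences, and that of Ache to Chat, each had a two-sided p of 2e-05 in a permutation test of 100000 resamples, the smallest it can give, and an adjusted p of 8e-05 over the 12 ratio tests made. The ratio of Chrm1 to Chrm2 was 3.40 ± 0.168 and 3.44 ± 0.406, with a permutation p of 0.746 (adjusted p 0.967).

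Levels of different genes can be set beside each other only per length of transcript. Per kilobase of annotated exon, on the GENCODE vM1 models, the mean in frontal cortex ran in the order Chrm3 (43.2 CPM per kb), Chrm1 (35.0), Ache (13.7), Chrnb2 (11.1), Chrna4 (7.97), Chrm4 (6.79), Chrm2 (3.44), Slc5a7 (0.286) and Chat (0.144). In this order, 4 neighbouring pairs overlapped in their ranges over the 12 libraries, namely Chrm3 with Chrm1, Chrna4 with Chrm4, Chrm4 with Chrm2 and Slc5a7 with Chat. The place of Chrm3 is uncertain, because its model here is a single exon of 1949 bp, shorter than the gene, and the value is then too high. In striatum the order was Chrm1 (30.1), Chrm4 (21.6), Ache (18.8), Chrm3 (14.4), Chrnb2 (11.7), Slc5a7 (8.71), Chat (7.15), Chrna4 (3.84) and Chrm2 (2.92), and every neighbouring pair overlapped. Chrm4 thus moved from the sixth place to the second, and Chat and Slc5a7 from the last 2 places to above Chrna4 and Chrm2.

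Within each genotype the pattern was alike. In WT mice the log2 differences between striatum and frontal cortex were 5.57 for Chat, 5.06 for Slc5a7, 0.43 for Ache and 1.49 for Chrm4, and in Igf2enh-/- mice 5.69, 4.80, 0.48 and 1.90. Chrm3 and Chrna4 were at -1.62 and -1.01 in WT mice and at -1.55 and -1.10 in Igf2enh-/- mice. In each genotype 8 of the 9 genes were called, against 68.8% of tested genes in WT mice and 69.8% in Igf2enh-/- mice. The gene that missed was Chrnb2 in WT mice (0.06, adjusted p 0.192) and Chrm2 in Igf2enh-/- mice (-0.16, adjusted p 0.244). Leaving out library 20 brought Chrnb2 past the threshold in WT mice (0.10, adjusted p 0.0122), leaving out library 12 took Chrm2 in WT mice just past it the other way (adjusted p 0.0501), and Chrnb2 in Igf2enh-/- mice (0.09, adjusted p 0.0429) remained called in 19 of the 27 fits that left out 1 library, with the highest adjusted p, 0.0829, without library 13.

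**Figure D2:**
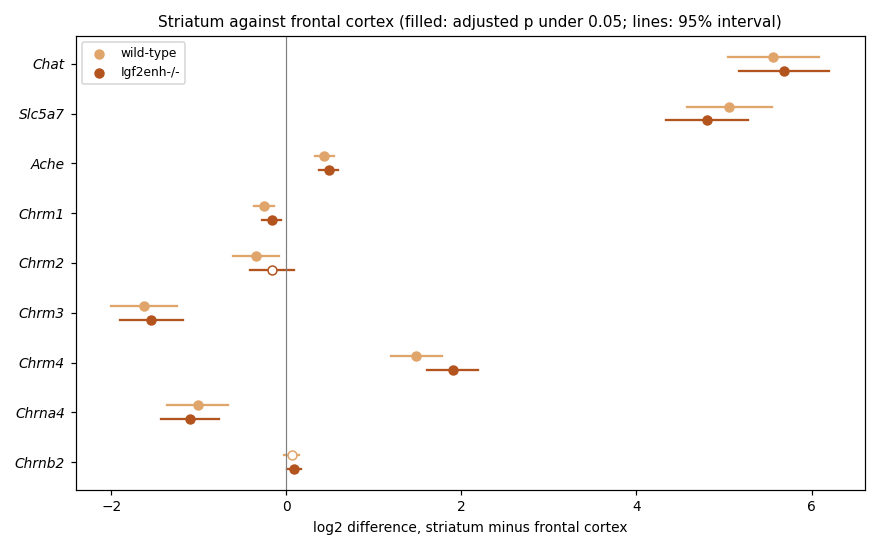
Log2 difference between striatum and frontal cortex for each gene (horizontal axis, striatum minus frontal cortex) in WT and in Igf2enh-/- mice, with lines for the 95% interval and filled points for an adjusted p under 0.05. Chat and Slc5a7 stand at 4.80 or more in both genotypes, while Chrm3 and Chrna4 lie at -1.01 or less.

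Other genes of cholinergic transmission also differed between the regions. In the list of cholinergic neuron identity genes, 6 of the 8 with an identifier were tested and 4 were called higher in striatum, where 78.3% of all tested genes were called and 39.3% were called higher. Of the 6, 3 passed the filter on low counts only through striatum, so nothing is read from that count. Isl1, a LIM homeodomain factor of striatal cholinergic neurons, had 7.78, 18.8 and 23.6 CPM in striatum and no count in 11 of the 12 cortical libraries, the exception being library 1 with 0.719 CPM. Nkx2-1, the factor that specifies these cells in the embryo, had a median of 7.34 CPM in striatum and at most 0.280 CPM in frontal cortex. Slc17a8, the vesicular glutamate transporter that cholinergic interneurons also use, rose by 2.30 (SE 0.120). Isl1 and Nkx2-1, like Chat, passed the filter only through striatum. The medians of Zic4 and Drd5 were 2.81 and 3.16 CPM in striatum against 4.24 and 2.88 CPM in frontal cortex, and neither was called.

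Of 9 genes for choline supply and cholinesterase partners, 7 were tested, 6 were higher in striatum and 1 was lower, in a comparison that called 78.3% of all tested genes, and nothing is read from the count. Prima1, which anchors acetylcholinesterase in neuronal membranes, went from a median of 0.873 CPM in frontal cortex to 16.3 CPM in striatum (log2 difference 4.22, SE 0.165). Prima1 passed the filter only through striatum. Acly, which supplies cytosolic acetyl-CoA, was higher by 0.54 (SE 0.0460), the choline transporter gene Slc44a1 by 0.71 (SE 0.0627), and Bche, for butyrylcholinesterase, by 0.89 (SE 0.0774). Of the choline kinase genes, Chkb was lower, at -0.32 (SE 0.0379). Chka was among the 6 called higher, with medians of 78.2 CPM in frontal cortex and 80.6 CPM in striatum.

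Of 15 further receptor genes, 3 reached the filter. Chrna7, the subunit of the homomeric nicotinic channel, was higher in striatum (0.34, SE 0.0763), and Chrna5 and Chrnb3, which are accessory subunits, were lower (-1.75, SE 0.237, and -2.52, SE 0.275). Chrna5 and Chrnb3 passed the filter only through frontal cortex, with striatal levels down to 0.322 and 0.121 CPM. Of 7 genes for assembly or modulation of nicotinic receptors, all tested, 1 was higher and 5 lower, a share near the 78.3% called over all tested genes. The chaperone gene Tmem35a was higher by 0.16 (SE 0.0376), and the Ly6 family genes Lynx1 and Lypd6, whose products bind nicotinic receptors, were lower at -0.44 (SE 0.0679) and -0.68 (SE 0.0679). Of 10 muscarinic signalling genes, 5 were higher and 5 lower, where 39.3% of all tested genes were higher and 39% lower, and nothing is read from these counts. The Gq chain gene Gnaq (-0.64, SE 0.0350) and Plcb4 (-1.26, SE 0.120) were among the lower ones and the Go chain gene Gnao1 (0.32, SE 0.0270) among the higher ones. The Gi chain gene Gnai1 was lower (-0.72, SE 0.0771). Plcb1 went the opposite way to Plcb4, with medians of 376 CPM in frontal cortex and 468 CPM in striatum.

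The striatal libraries differed widely among themselves, and the cholinergic genes moved with that variation. The summed level of 10 cortical projection neuron markers ran from 65.8 to 1265 CPM over the 15 striatal libraries, with a median of 331, and from 2340 to 2580 CPM in frontal cortex. That of 10 medium spiny neuron markers ran from 3803 to 10596 CPM in striatum and from 178 to 260 CPM in frontal cortex. None of the genes in either list was at 0 throughout either region. Library 20 had the highest cortical marker sum and the lowest medium spiny neuron sum of the striatal libraries, and also the highest oligodendrocyte marker sum (10516 CPM against 4835 to 9246 CPM in the others). Library 15, from an Igf2enh-/- female, had a choroid plexus marker sum of 4536 CPM, where the median over striatum was 217. Without libraries 15 and 20 the log2 differences between regions were 5.69 for Chat, 5.01 for Slc5a7, 0.49 for Ache, 1.74 for Chrm4, -1.65 for Chrm3, -1.10 for Chrna4, -0.19 for Chrm1, -0.28 for Chrm2 and 0.10 for Chrnb2, and all 9 were still called.

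Across the 15 striatal libraries, Chat fell with the cortical marker sum (Pearson's r -0.88, Spearman's rho -0.93). Slc5a7 (r -0.82, rho -0.90) and Chrm4 (r -0.76, rho -0.80) behaved likewise. Chrna4 rose with it (r 0.97, rho 0.97), as did Chrm3 (r 0.91, rho 0.96) and Chrm2 (r 0.73, rho 0.79). Over the 18 relations computed, of 9 genes with each of the 2 marker sums, these 6 had two-sided permutation p between 1e-05, the smallest that 100000 resamples can give, and 0.00194, and adjusted p of at most 0.00291. Without the 2 libraries farthest from the median marker sum, r stayed between -0.69 and -0.88 for Chat, Slc5a7 and Chrm4 and between 0.77 and 0.96 for the others, and within WT and within Igf2enh-/- libraries every one of the 6 kept its sign. Chrm1 (r -0.42, permutation p 0.116) and Chrnb2 (r -0.32, permutation p 0.254) did not pass. Ache had r of -0.59 (adjusted p 0.0240) but rho of -0.43 (permutation p 0.114), and r of 0.08 within Igf2enh-/- libraries. With the medium spiny neuron sum the signs were opposite, with r of 0.95 for Chat, 0.87 for Slc5a7, 0.93 for Chrm4, -0.87 for Chrm2, -0.87 for Chrm3 and -0.85 for Chrna4. Chrm1 had r of 0.68 with that sum (adjusted p 0.00939) but 0.23 without the 2 farthest libraries. These relations were chosen after the values had been seen. The libraries differ in marker level and in cholinergic gene level together, and the part of tissue composition in each was not tested.

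**Figure D3:**
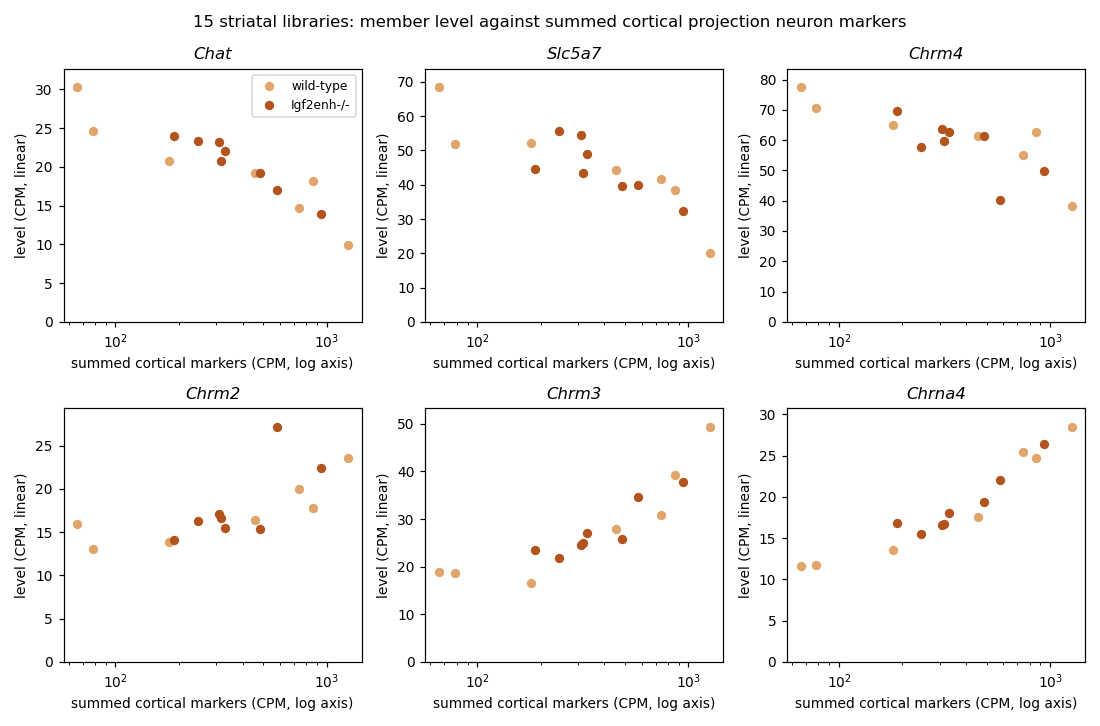
Level of 6 members (CPM, linear axis) against the summed level of 10 cortical projection neuron markers (CPM, log axis) in the 15 striatal libraries, WT and Igf2enh-/-. Chat, Slc5a7 and Chrm4 fall from left to right and Chrm2, Chrm3 and Chrna4 rise, with library 20 at the right-hand end at 1265 CPM.

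Chat and Slc5a7, both of which mark cholinergic neurons, tracked each other across striatal libraries, with r of 0.94 and rho of 0.87 (two-sided permutation p 1e-05 and 6e-05, adjusted over 3 pairs to 3e-05 and 0.00018). The relation held without libraries 20 and 23, which were farthest from the median of Chat (r 0.83), and within WT (r 0.95, n = 7, permutation p 0.00169) and Igf2enh-/- libraries (r 0.89, n = 8, permutation p 0.00174). Chat had r of 0.95 with the medium spiny neuron sum, so closeness to Chat was not particular to cholinergic genes. Ache did not follow Chat and Slc5a7 as closely. Its r with Chat was 0.63 (permutation p 0.0157) and with Slc5a7 0.70 (permutation p 0.00903), but the rho values were 0.36 and 0.33. Without the 2 libraries farthest from the median, r with Ache was 0.13 for Chat (libraries 20 and 23) and 0.09 for Slc5a7 (libraries 20 and 22). Within WT libraries r with Ache was 0.90 for Chat and 0.96 for Slc5a7, or 0.64 and 0.72 without libraries 20 and 22. Within Igf2enh-/- libraries r with Ache was -0.12 and -0.15, and the difference between genotypes was not tested. In the plot of levels by library, library 20 can be seen as the low WT striatal value of Ache.

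Ranked over 13874 genes by r with Chat across the same libraries, the 5 most alike included Acly (0.98), Ric8b (0.97), Gpr155 (0.96) and Kcnk2 (0.96). Ric8b encodes a chaperone of G protein alpha subunits, and Kcnk2 a background potassium channel. These 4 were higher in striatum, from a log2 difference of 0.54 for Acly to 2.09 for Gpr155. Slc5a7 ranked 49th in this order and Chrm4 450th (r 0.85), while Chrna4 (r -0.89) ranked 13578th. All of these points share the variation in marker levels given above.

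The second comparison asked whether loss of the Igf2 enhancer altered these genes. In frontal cortex, 53 of 13936 tested genes were called (0.38%), 18 higher and 35 lower, and among the 8 members tested 1 was called, Chrm1, which was lower (0.251% of tested genes were). Its values in WT libraries were 232, 220, 226, 240, 243 and 233 CPM, and in Igf2enh-/- libraries 198, 220, 202, 212, 206 and 204 CPM. In 5 of the 6 Igf2enh-/- libraries the level was below all 6 WT libraries. The groups overlapped through library 3, at 220 CPM. Chrm1 fell by 0.17 on the log2 scale (SE 0.0325, adjusted p 0.0401), or to 0.890 of the WT level. The call held in 2 of the 12 fits that left out 1 library, those without library 1 and library 3, and the adjusted p ran from 0.0142 to 0.118 with a log2 difference between -0.19 and -0.16. It also held under the likelihood ratio test, DESeq2, limma-voom, 2 other scalings, 2 other filters and without sex, with adjusted p from 0.000455 to 0.0435.

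Chrm4 had the larger difference and missed the threshold. The WT libraries had 20.5, 21.6, 22.0, 23.1, 23.1 and 21.9 CPM, and the Igf2enh-/- libraries 22.3, 15.8, 11.4, 17.8, 13.1 and 13.0 CPM. The WT values were tight (SD 0.971), and 5 of the 6 Igf2enh-/- libraries lay below all of them, the exception being library 1. The log2 difference was -0.51 (SE 0.127, adjusted p 0.0940). Without library 1 it was -0.65 with an adjusted p of 0.00669, and Chrm4 was also called by edgeR's likelihood ratio test (adjusted p 0.0128), by DESeq2 (adjusted p 0.0104) and in the fit with no filter on low counts (adjusted p 2.12e-05). The fit with no filter called 1.39% of all its genes, against 0.38% in the main fit. Of the 12 fits that left out 1 library, 1 called Chrm4 by edgeR's quasi-likelihood test. The adjusted p of that test reached 0.233 without library 9. Library 1 had the lowest sum of medium spiny neuron markers in frontal cortex (178 CPM against 228 to 260 in the others), the lowest oligodendrocyte sum (985 CPM against 1484 to 2105) and the highest meningeal fibroblast sum (136 CPM against 49.0 to 121). The other 5 Igf2enh-/- libraries had medium spiny neuron sums of 228 to 247 CPM, within or near the WT range of 232 to 260, and meningeal sums of 73.5 to 102 CPM against 49.0 to 121. The WT value of 121 CPM was that of library 2. Over all 6 libraries a group, the median meningeal sum was 88.4 CPM in Igf2enh-/- and 67.8 CPM in WT mice. The median log2 genotype difference was 0.33 over 8 meningeal genes and -0.18 over 8 oligodendrocyte genes, and none of these genes was called. The part of these markers in the Chrm4 and Chrm1 differences was not tested.

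The log2 ratio of Chrm1 to Chrm4 in frontal cortex was 3.40 ± 0.0544 in WT (SD, n = 6) and 3.77 ± 0.361 in Igf2enh-/- libraries (SD, n = 6). The exact two-sided permutation p was 0.0455 and its adjusted p over the 12 ratio tests 0.136. Without library 1 the exact permutation test gave an adjusted p of 0.0130, the single such fit of 12 under 0.05. None of the other 7 genotype ratio tests passed, with adjusted p of 0.634 or more.

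The remaining members did not differ in frontal cortex by the test. The log2 differences were -0.09 for Ache (SE 0.0356, adjusted p 0.289), -0.14 for Chrm3 (SE 0.0528, adjusted p 0.274), -0.10 for Chrm2, 0.23 for Slc5a7, 0.09 for Chrna4 and -0.02 for Chrnb2. Ache and Chrm3 had unadjusted p under 0.05, as did Chrm1 and Chrm4, making 4 of 8 members against 13.5% of all tested genes. Chat was under the filter in frontal cortex, and without a filter its log2 difference was -0.09, with a 95% interval from -0.66 to 0.47. The fit without a filter held 33060 genes against 13936 with it, and its interval is narrower for its SE than the filtered ones. Smaller changes of Chat were not detectable at 7 to 15 counts per library.

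In striatum, 5 of 13875 tested genes were called (0.036%), all lower in Igf2enh-/- mice, and 0 of the 9 members were, by edgeR's quasi-likelihood test. None of the 9 had an unadjusted p under 0.05, against 10% of all tested genes. DESeq2 and the likelihood ratio test also called none. Chat had 9.90, 19.2 and 30.3 CPM in 7 WT libraries and 13.9, 21.4 and 24.0 CPM in 8 Igf2enh-/- libraries. Its log2 difference was 0.03, with a 95% interval from -0.36 to 0.42. For Slc5a7 the difference was -0.02 (interval -0.43 to 0.39), for Ache -0.04 (-0.17 to 0.09), for Chrm1 -0.09 (-0.19 to 0.02) and for Chrm4 -0.10 (-0.37 to 0.16). The groups overlapped for every member, and the share of all tested genes that did so was not counted. With the log2 cortical marker sum as a covariate, an alternative added after the values were seen, the intervals narrowed. Chat was then at 0.15 (interval -0.01 to 0.32), Slc5a7 at 0.09 (-0.15 to 0.32), Chrm4 at -0.05 (-0.22 to 0.12), Chrm3 at -0.07 (-0.27 to 0.12) and Chrna4 at -0.01 (-0.13 to 0.11), with adjusted p of 0.350 or more for all 9.

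**Figure D4:**
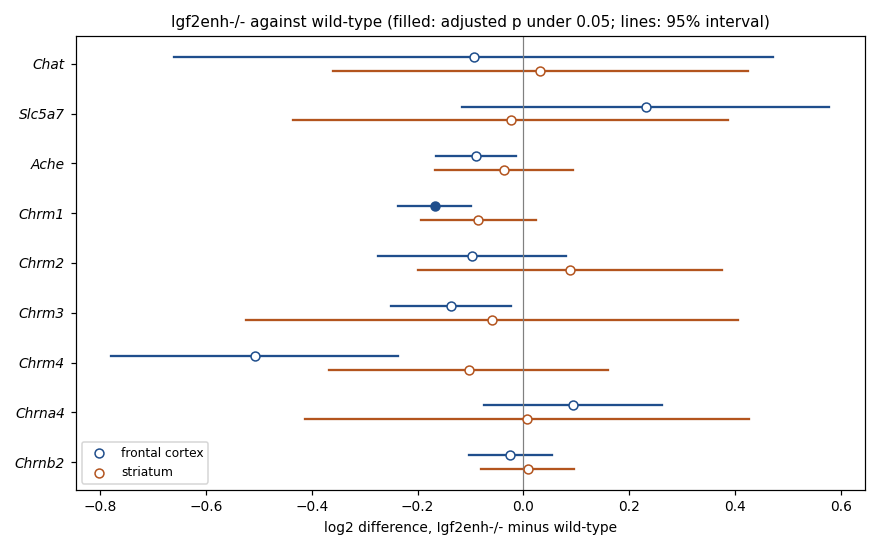
Log2 difference between Igf2enh-/- and WT mice for each gene (horizontal axis, Igf2enh-/- minus WT) in frontal cortex and in striatum, with lines for the 95% interval and filled points for an adjusted p under 0.05. The single filled point is Chrm1 in frontal cortex at -0.17, and Chat in frontal cortex is from the fit with no filter on low counts.

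Whether the effect of genotype differed between the regions was tested directly by the interaction term, and 0 of 14397 genes were called (0%) by edgeR's quasi-likelihood test, with 418 at an unadjusted p under 0.05. The likelihood ratio test and DESeq2 also called 0. Chrm4 was the member nearest to it, with a log2 difference of differences of 0.41 (SE 0.194, unadjusted p 0.0439, adjusted p 1.00). For Chrm1 the value was 0.09 (SE 0.0739). The genotype differences of Chrm1 and Chrm4 in frontal cortex were therefore not shown to differ from those in striatum.

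Among genes that passed the filter, no gene of the 5 other cholinergic lists was called between genotypes in either region by edgeR's quasi-likelihood test. With no filter on low counts, the same test called 1.39% of all genes in frontal cortex, and 3 list genes that lie under the filter were among them; they were examined after their values were seen. Chrna2, a nicotinic receptor subunit, was at 0.832 to 1.15 CPM in the 6 wild-type libraries and at 0.320 to 0.771 CPM in the 6 Igf2enh-/- libraries, so the groups did not overlap (log2 difference -0.85, SE 0.212, adjusted p = 0.0171). These levels rest on 22 to 30 counts a library in wild-type and 8 to 22 in Igf2enh-/- mice, and without library 6 the adjusted p was 0.0702. Chrna10, another subunit, was at 1.46 CPM in Igf2enh-/- library 9 against a median of 0.120 CPM in that group and 0 to 0.146 CPM in the wild-type libraries, and its log2 difference of 2.16 (SE 0.582, adjusted p = 0.0348) became 0.50 (adjusted p = 0.847) without library 9. Without library 3, 4, 6, 8 or 10, the adjusted p of Chrna10 in edgeR's quasi-likelihood test was 0.0520 to 0.218. Isl1 had counts in frontal cortex in 1 library, Igf2enh-/- library 1, at 0.719 CPM, and its call (adjusted p = 0.0488) rests on that library. Without library 2, 4, 6, 9 or 10, the adjusted p of Isl1 in the same test was 0.0811 to 0.301. In striatum none of the 3 was called. In frontal cortex the medians over the tested genes were -0.01 for the further receptor genes (3 tested), -0.04 for choline supply and cholinesterase partners (6 tested), 0.01 for the nicotinic modulators (7 tested), -0.04 for muscarinic signalling (10 tested) and 0.32 for cholinergic neuron identity (3 tested). In striatum they were 0.07 (1 tested), -0.07 (7 tested), -0.05 (7 tested), 0.05 (10 tested) and -0.02 (6 tested).

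Sex was a covariate in these fits and was itself compared. Between males and females, 6 genes were called in frontal cortex (0.0431%) and 6 in striatum (0.0432%), with 0 members in either by edgeR's quasi-likelihood test. Chrna4 in frontal cortex (0.19 higher in males, unadjusted p 0.0277, adjusted p 0.623), Chrm1 in striatum (-0.15, unadjusted p 0.00851, adjusted p 0.448) and Chrm2 in striatum (0.29, unadjusted p 0.0455, adjusted p 0.461) were the members with an unadjusted p under 0.05. Of all tested genes, 7.56% in frontal cortex and 10.8% in striatum had an unadjusted p under 0.05 by the same test. The likelihood ratio test and DESeq2 called no member either.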

How the data were processed

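Read counts per gene were deposited by the authors for 12 frontal cortex and 15 striatum libraries. Per the methods and labels, single-end reads were made from total RNA, trimmed with Trim Galore 0.5.0 and aligned with STAR to GRCm38 with GENCODE vM15. The strand setting of the counting is not given in the sources used here. Genes with at least 1 CPM in all libraries of a fit, or of either region in the fit over both, were tested with edgeR 4.0.16 (TMM scaling, quasi-likelihood test, sex as covariate, R 4.3.3), which differs from the likelihood ratio test of the study. At 1 CPM a library had between 23.7 and 33.9 counts. The fits were tested on simulated data. Ratios and correlations (log2 of CPM plus 0.5) used permutation tests in scipy 1.17.1, and figures matplotlib 3.10.9. DESeq2 1.42.0 and limma-voom (limma 3.58.1), other scalings and filters, and leaving out libraries were alternatives. Symbols came from an NCBIM37 annotation and RefSeq tables. Named genes were all members, up to 5 called genes of each list, any gene of a count of 5 or fewer, the 5 nearest to Chat, and Chka beside Chkb. The members and lists were chosen with earlier results of these data known. The p-values take libraries as the samples, and cortical and striatal libraries may come from the same mouse. Comparisons involving Slc18a3 were not run. A gene that this rule would name is not reported here.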

Additional observations from a re-analysis of the deposited data

Results flagged for a closer look

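A pair of values stood apart from the rest of their group. In the WT striatal group of 7, library 20 had the lowest Ache level, 69.4 CPM, and the lowest Chrnb2 level, 54.4 CPM, each separated from its nearest neighbour by 0.587 of the group's range, where Dixon's 95% critical value is 0.568. Of the 36 groups of values examined, 2 were marked in this way, and chance alone marks about 1 in 20. The same library had the highest cortical projection neuron and oligodendrocyte marker sums of the striatal libraries, and the part of these in the values was not tested.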

How the results depend on the processing

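The number of genes called depended on the test. Of the values of single genes, ratios and pairs, 589 under alternatives other than leaving out 1 library kept their direction and their side of the threshold, 15 changed sign, 4 passed the threshold anew and 4 no longer passed it. The cause of these changes was not tested. For genotype in frontal cortex, 53 genes became 232 with the likelihood ratio test, 247 with DESeq2, 459 with no filter and 8 to 99 when 1 library was left out, with the highest without library 1 and the lowest without library 10. For genotype in striatum, 5 became 56, 112 and 10 with the same 3 changes, 13 with filterByExpr, 3 with limma-voom, 3 without sex, 51 with the cortical marker covariate and 3 to 8 when 1 library was left out, the fewest without library 18 and the most without library 23. For sex, 6 in frontal cortex became 28, 21, 185 and, with filterByExpr, 14. The 6 in striatum became 12, 16, 14 and, with filterByExpr, 12, or 3 without libraries 15 and 20. The 3 ratio differences called, all between regions, were called under every alternative. Of the 3 correlations, 1 (Chat with Slc5a7) remained without libraries 15 and 20 or within Igf2enh-/- mice, and 1 to 3 when 1 library was left out, the fewest without library 20. Within Igf2enh-/- mice r with Ache was -0.12 for Chat and -0.15 for Slc5a7.

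All sign changes among members were in differences that no fit called. For genotype in striatum, limma-voom gave 0.029 for Slc5a7 and 0.039 for Chrm3, the fit without sex gave -0.0048 for Chrna4, the covariate gave 0.086 for Slc5a7 and -0.0093 for Chrna4, and leaving out libraries 15 and 20 gave -0.065 for Chat, 0.14 for Chrm3 and -0.011 for Chrnb2. For sex in striatum Chrm3 was at -0.031 without libraries 15 and 20 and at -0.043 with the covariate, and the interaction for Chrna4 was at 0.032 without these libraries. The Ache to Chat ratio between cortical genotypes was -0.0042 with 2 counts added, and the Chrm1 to Chrm4 ratio between striatal genotypes 0.054 without libraries 15 and 20.

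Leaving out 1 library moved the genotype difference in striatum from -0.068 to 0.19 for Chat, -0.0063 to 0.16 for Chrm2, -0.16 to 0.12 for Chrm3, -0.098 to 0.13 for Chrna4, -0.022 to 0.028 for Chrnb2 and -0.14 to 0.11 for Slc5a7. The sex difference in frontal cortex moved from -0.035 to 0.0034 for Ache, -0.046 to 0.016 for Chrm3, -0.12 to 0.091 for Chrm4, -0.011 to 0.026 for Chrnb2 and -0.15 to 0.059 for Slc5a7. In striatum it moved from -0.0062 to 0.28 for Chrm3, -0.037 to 0.0060 for Chrnb2 and -0.21 to 0.0042 for Slc5a7. The interaction moved from -0.018 to 0.26 for Chrm3 and -0.19 to 0.023 for Chrna4. The log2 ratio difference moved from -0.10 to 0.12 for Ache to Chat in frontal cortex, and in striatum from -0.065 to 0.060 for Chrm1 to Chrm4 and -0.059 to 0.20 for Chrna4 to Chrnb2.

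With 7 to 15 counts of Chat per cortical library, its genotype difference there had the widest interval of the members. No paired analysis was possible because the labels number the libraries from 1 to 27 and give no number to 2 libraries.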
